A study of Mus musculus with 9 samples.

Results

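Colony-stimulating factors (CSFs) are secreted proteins that keep cells of the myeloid lineage alive and make them divide and mature. The 8 genes described here encode the factors, Csf1, Csf2 and Csf3, and the receptor chains that bind them, Csf1r, Csf2ra, Csf2rb, Csf2rb2 and Csf3r. They were taken by gene symbol, by their membership of this family, from the 43629 genes of an RNA-seq experiment in RAW264.7, an established mouse macrophage-like cell line. All 8 had a row, and all 8 were among the 14808 genes that passed a filter on low values (10 or more normalised counts, reached in 3 or more libraries). Csf2 and Csf3 passed it only through libraries that received LPS, so for these genes a difference from Control was built into the filter. Csf1 also needed such libraries, since its value in Control replicate 3 (8.05) lay under the limit.

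The libraries form 3 groups of 3. LPS+NaBu cells received lipopolysaccharide (LPS), a bacterial cell wall component sensed by the receptor TLR4, and sodium butyrate (NaBu), the salt of a short-chain fatty acid that inhibits histone deacetylases. The study describes NaBu as a pretreatment, given before LPS. LPS cells received LPS alone, and Control cells neither agent. Doses and times for these libraries are not stated in the labels, and cells given NaBu without LPS were not analysed here, so what NaBu does alone and what it does to the LPS response cannot be told apart. The replicates are described as biological, but whether they were separate cultures is not given, so the tests here see only how far the libraries of a group scatter, and part of that scatter could be technical. In bulk RNA, fewer cells of a kind and less RNA per cell cannot be told apart either.

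In the mouse genome (GRCm39, GENCODE annotation) Csf2 and Csf3 both lie on chromosome 11, at chr11:54138097-54140493 on the minus strand and chr11:98592089-98594458 on the plus strand, and Csf1 at chr3:107648364-107667806 (minus). The beta chain genes are neighbours that run in opposite directions, Csf2rb at chr15:78209952-78238047 (plus) and Csf2rb2 at chr15:78166707-78189921 (minus). Csf2ra lies at chr19:61212395-61216892 (minus), Csf3r at chr4:125918262-125938236 (plus) and Csf1r on chromosome 18 (plus).

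CSF-1, also called M-CSF, is the main survival factor of macrophages and acts through the tyrosine kinase CSF1R, which it shares with the cytokine IL-34. GM-CSF (Csf2) binds the alpha chain CSF2RA, which pairs with a signalling beta chain. Mice carry 2 beta chains, the common chain Csf2rb, used by GM-CSF, IL-3 and IL-5, and the close copy Csf2rb2, used by IL-3. G-CSF (Csf3) drives neutrophil production through CSF3R, and macrophages exposed to LPS are a known source of it. The beta chains and CSF3R have no kinase of their own and signal through JAK kinases and STAT factors.

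The values are normalised counts, in which the number of reads of a gene is divided by a size factor of its library. Gene length does not enter them, and levels of different genes are therefore set side by side only per kilobase (kb) of exon. Libraries held 37.6 to 64.4 M reads in genes, and 1 read corresponded to a normalised count of 0.688 to 1.41. A change is given as the difference of mean log2(normalised count + 1) with its standard error (SE), a scale that understates the change of low genes. It was called at an adjusted p below 0.05 (limma across all 14808 genes, Benjamini-Hochberg).

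The summed level of the 7 macrophage markers found in the files was 203403 to 220274 in LPS+NaBu libraries, 589855 to 626371 in LPS libraries and 402160 to 420689 in Control libraries. Lyz2 made the largest part of each sum, averaging 148101 with LPS+NaBu, 268185 with LPS and 255390 in Control. The listed marker Adgre1 had no row. All of the 7 except Mertk had reads in every library. Of the 7, 6 were called lower in LPS+NaBu than in LPS libraries, where 37.8% of all tested genes were called lower. Mertk was the exception, with 374 normalised counts on average in LPS+NaBu, 0.334 in LPS and 1.73 in Control libraries. It passed the filter only through LPS+NaBu libraries, so its difference was built into the filter. The 7 fibroblast markers, mostly Col1a1, summed to 268 to 296 in LPS+NaBu libraries, against 13.0 to 18.8 with LPS and 6.36 to 12.1 in Control, and 4 of them were tested and called higher with LPS+NaBu. These 4 passed the filter only through LPS+NaBu libraries, so a difference from the other groups was built into the filter. Among all tested genes 40.2% were called higher with LPS+NaBu than with LPS, and 40.9% than in Control. Dcn and Lum had 0 reads in the LPS+NaBu libraries. The neutrophil list, which was nearly all Mmp9, summed to 10500 to 10846 with LPS+NaBu, 31709 to 33885 with LPS and 1213 to 1317 in Control. Of this list S100a8, Camp and Mmp9 were tested, and all 3 were higher with LPS than in Control and lower with LPS+NaBu than with LPS (25.2% and 37.8% of all tested genes). Camp passed the filter only through LPS libraries, so its calls were partly built in. S100a9 and Mmp8 had 0 reads in all 9 libraries, as did the 5 markers of mast cells and basophils, while Mpo had 30 reads with LPS+NaBu and 0 in the other groups. The summed markers of dendritic cells were 474 to 548 with LPS+NaBu, 767 to 785 with LPS and 92.0 to 110 in Control. Within this sum Zbtb46 was higher with LPS+NaBu than with LPS (498 and 53.3 on average) and Xcr1 lower (18.6 and 721). The summed markers of T cells, mostly Lck, were 225 to 238 with LPS+NaBu, 1302 to 1474 with LPS and 435 to 486 in Control. Those of B cells were 46.3 to 56.4 with LPS+NaBu, 74.9 to 104 with LPS and 5.57 to 20.0 in Control. Within the B cell sum Pax5 averaged 5.92 with LPS+NaBu and 86.3 with LPS. Cd79a and Cd79b went the other way and were called higher with LPS+NaBu than with LPS (log2 changes 2.07 and 3.40). Both needed LPS+NaBu libraries to pass the filter, so these calls were partly built in. Mitochondrial genes took 2.05% to 2.16% of reads with LPS+NaBu, 1.36% to 1.46% with LPS and 2.06% to 2.27% in Control. More genes reached a normalised count of 10 in LPS+NaBu libraries (14405 to 14540) than in LPS (13447 to 13720) or Control libraries (13284 to 13532). The part of these differences in the results below was not tested.

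To see what NaBu changed in stimulated cells, LPS+NaBu was compared with LPS. All 3 ligands and 3 receptor chains (Csf1r, Csf2ra and Csf2rb2) were lower with LPS+NaBu, Csf2rb was higher, and Csf3r was not called. The comparison thus called 1 member higher and 6 lower of 8, while of all tested genes 78.1% were called, 40.2% higher and 37.8% lower. The values of the LPS+NaBu and LPS libraries did not overlap for any of the 8 members, nor for 79.0% of all tested genes. For Csf3r the highest LPS+NaBu value (28.12) lay less than 1 read under the lowest LPS value (28.25), so this gene is barely separate. The median log2 change of the members was -1.50, and that of all tested genes 0.02.

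To see what LPS changed, LPS was compared with Control. It called 6 members higher (the 3 ligands, Csf2ra, Csf2rb and Csf2rb2) and Csf1r lower, against a background of 56.1% of tested genes called, 25.2% higher and 30.8% lower. The groups did not overlap for 7 members, where 60.6% of all tested genes did not overlap, and the median log2 change of the members was 0.75, against -0.05 for all tested genes. With LPS+NaBu against Control, 4 members were called higher (the ligands and Csf2rb) and 3 lower (Csf1r, Csf2ra and Csf2rb2), where 76.1% of tested genes were called, 40.9% higher and 35.1% lower. Here the groups did not overlap for 7 members and for 79.4% of all tested genes, with a median log2 change of 0.70 for the members and 0.09 for all tested genes. The 3 comparisons share libraries, so their counts are not independent. The ligands needed libraries with LPS to pass the filter, so their calls against Control were partly built in.

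**Figure D1:**
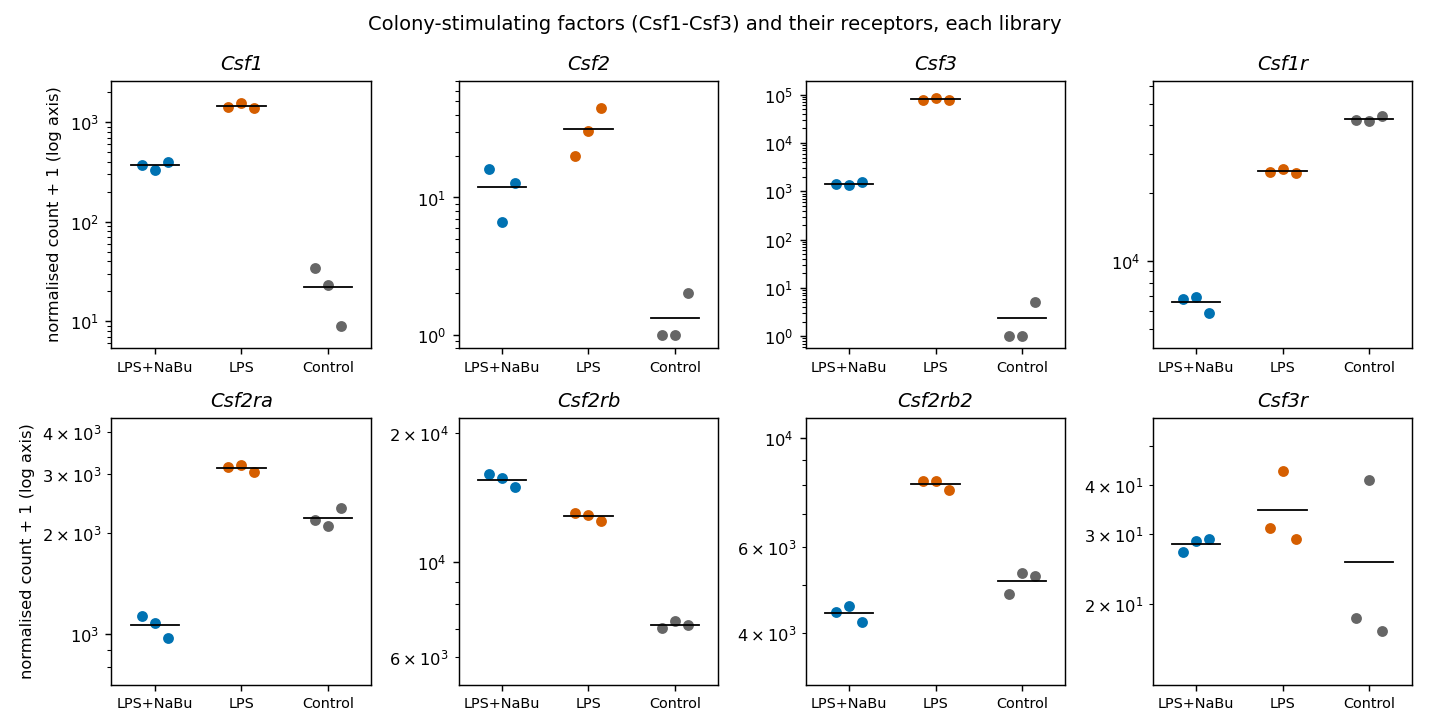
Normalised count + 1 of each gene in each library, on log axes that differ between panels; points are libraries and black lines group means (n = 3). In the Csf3 panel the LPS+NaBu libraries sit between 1379 and 1537 and the LPS libraries between 77013 and 83710, while the groups overlap only in the Csf3r panel.

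The plot of values by library shows that the ligands were close to absent in Control cells. Csf3, the granulocyte factor, had normalised counts of 1383, 1379 and 1537 in LPS+NaBu libraries, 77013, 83710 and 78837 in LPS libraries, and 0, 0 and 4.02 in Control libraries. Each group thus lay apart from the others by more than its own spread. Csf3 was 55.7-fold lower with LPS+NaBu than with LPS (log2 change -5.80 ± 0.45 SE, adjusted p = 5.52e-08). Even so it stayed far above Control, where only 4 reads were found in all. The ratio of reads per library size was 1163 for LPS+NaBu against Control (95% counting interval 454 to 4272; log2 change 9.71 ± 0.45, adjusted p = 3.23e-10). For LPS against Control it was 64832 (25321 to 237948; log2 change 15.51 ± 0.45, adjusted p = 7.03e-12). Such intervals cover counting error only. Csf3 passed the filter only through libraries that received LPS, so its p-values against Control are a description. All 4 Control reads came from Control replicate 3, and without it the log2 change was 16.28 for LPS against Control and 10.48 for LPS+NaBu against Control.

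Csf1, the macrophage survival factor, had 372, 331 and 400 normalised counts with LPS+NaBu, 1427, 1536 and 1383 with LPS, and 33.4, 22.0 and 8.05 in Control. The groups were again separate, with the Control libraries spread over the widest relative range. Csf1 fell to 368 ± 34.6 with LPS+NaBu, against 1449 ± 79.2 with LPS (SD, n = 3 each), which is 3.94-fold lower (log2 change -1.98 ± 0.34, adjusted p = 0.000151 by limma). It was 17.4-fold higher in LPS+NaBu than in Control cells (4.25 ± 0.34, adjusted p = 9.80e-08) and 68.5-fold higher in LPS than in Control cells (6.23 ± 0.34, adjusted p = 5.22e-09). Csf1 needed libraries with LPS to pass the filter, which limits its p-values against Control.

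Csf2, which encodes GM-CSF, was the faintest of the ligands, with 15.1, 5.58 and 11.8 normalised counts in LPS+NaBu libraries, 19.0, 29.3 and 43.8 in LPS libraries, and 0, 0 and 1.01 in Control libraries. These rest on 40 reads with LPS+NaBu, 75 with LPS and 1 in Control, so the replicates differ widely and the highest LPS+NaBu library lies just under the lowest LPS library. Csf2 was 2.84-fold lower with LPS+NaBu than with LPS (log2 change -1.44 ± 0.53, adjusted p = 0.0233). That call was lost without LPS+NaBu replicate 2 (-1.07, adjusted p = 0.0938), without LPS replicate 2 (-1.44, adjusted p = 0.0525) or without LPS replicate 3 (-1.16, adjusted p = 0.10), and with libraries brought to an equal sum (-1.18, adjusted p = 0.0565), while quantile normalization gave -2.61 (adjusted p = 0.00186). The ratio to Control was 37.7 for LPS+NaBu (95% counting interval 6.38 to 1524; adjusted p = 0.000117) and 95.4 for LPS (16.6 to 3816; adjusted p = 7.05e-06). Since Csf2 passed the filter only through libraries that received LPS, these p-values are a description. Under quantile normalization the log2 change of Csf2 for LPS+NaBu against Control was 1.46 (adjusted p = 0.0480), against 3.13 in the fit used here.

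Csf3 kept a smaller share of its LPS response than Csf1 when NaBu was present. The share is the excess of the LPS+NaBu mean over Control, as a percentage of the excess of the LPS mean over Control. It was 1.79% for Csf3, 24.3% for Csf1 and 34.5% for Csf2. Over the 1245 genes called at least 2-fold higher with LPS the median share was 25.8%, with quartiles of 3.08% and 97.3%. Csf1 therefore sat near the median of LPS-responsive genes and Csf3 under their lower quartile. The LPS libraries enter both terms, so the shares are a description.

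**Figure D2:**
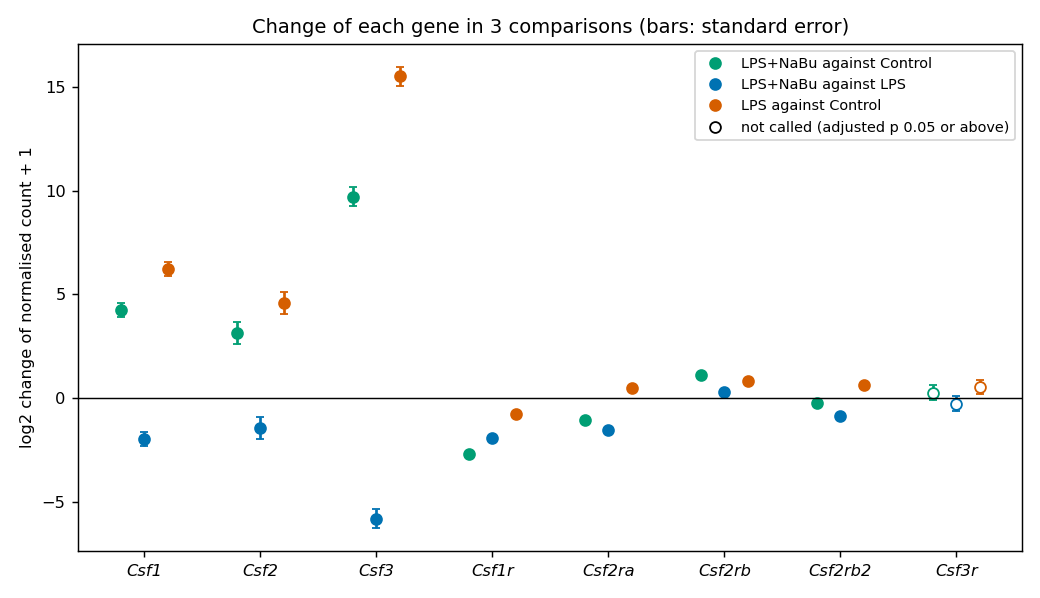
Log2 change (normalised count + 1) of each gene, with bars for the standard error, in 3 comparisons among 9 libraries; open points were not called. The ligands spread from -5.80 to 15.51, whereas every receptor chain lies between -2.71 and 1.12.

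Transcripts of Csf2 and Csf3 carry AU-rich elements, repeats of ATTTA in the 3' untranslated region (UTR) through which proteins such as tristetraprolin speed decay in stimulated cells. They are shown because the transcripts of the 8 members differ widely in them. In the canonical GENCODE transcripts (GRCm39) the Csf2 UTR of 317 bases held 9 ATTTA pentamers and 4 copies of the nonamer TTATTTATT. That number of pentamers was reached by 0.0646% of 1547 UTRs of like length (within 20%), its own included. Csf3 had 6 in 672 bases, a number reached by 1.86% of 2044 UTRs of like length, and no nonamer. Csf1 had 4 in 2111 bases, Csf1r 3 in 2983 bases and Csf2ra 1 in 1047 bases, while Csf2rb, Csf2rb2 and Csf3r had 0. The nonamer occurred in Csf2ra and in 8.41% of all 20672 UTRs. The densest stretches, with ATTTA in capitals, lie at bases 230 to 259 of the Csf2 UTR (chromosome 11, minus strand) and at bases 24 to 53 of the Csf3 UTR (chromosome 11, plus strand).
Csf2: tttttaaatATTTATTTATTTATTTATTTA
Csf3: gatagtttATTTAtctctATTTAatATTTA
The Csf2 stretch holds 5 overlapping pentamers and the Csf3 stretch 3 that are spaced apart. A match is a description of the sequence and shows nothing of decay in these cells.

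All 3 ligands moved in the same directions in all 3 comparisons. For Csf1 and Csf2 the 250 bases before the canonical start site were read from GRCm39, and that of Csf3 was not used here. The Csf1 window is chr3:107667807-107668056 and the Csf2 window chr11:54140494-54140743, both on the minus strand. Searched on both strands, with capitals for matches, they were as follows.
Csf1: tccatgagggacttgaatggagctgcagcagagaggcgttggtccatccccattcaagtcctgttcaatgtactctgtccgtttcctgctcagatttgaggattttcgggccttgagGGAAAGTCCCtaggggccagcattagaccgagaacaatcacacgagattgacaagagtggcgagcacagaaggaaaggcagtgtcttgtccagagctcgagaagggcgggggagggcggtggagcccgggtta
Csf2: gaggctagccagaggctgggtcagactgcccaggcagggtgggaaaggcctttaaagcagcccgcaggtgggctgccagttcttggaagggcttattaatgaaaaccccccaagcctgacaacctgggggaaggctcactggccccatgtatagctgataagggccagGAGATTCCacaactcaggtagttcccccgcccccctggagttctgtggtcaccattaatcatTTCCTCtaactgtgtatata
The Csf1 window had 1 match to the NF-kB consensus, 133 to 124 bases before the start, a match found in 7.62% of 21770 protein-coding promoters of the same length. The Csf2 window had the CK-1 element GAGATTCC, described in cytokine promoters, at 82 to 75 bases (0.763% of promoters). It also had the PU.1 core GAGGAA, read on the opposite strand, at 20 to 15 bases (22.9%). The NF-kB consensus had no exact match in the Csf2 window, and CK-1 and the PU.1 core had none in the Csf1 window. Sites that differ from the searched letters were not counted, so a missing match does not show that a site is absent. No matches overlapped, and neither window held the letters TTNNGCAA for C/EBP (9.34%), TGANTCA for AP-1 (6.17%) or TATAAA (11.9%). The Csf2 window ends in the letters tatata at the annotated start, and a match running past that edge was not searched.

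Csf1r, the receptor of CSF-1 and IL-34 and a defining gene of the macrophage lineage, had 6778, 6942 and 5888 normalised counts in LPS+NaBu libraries, 24923, 25606 and 24519 in LPS libraries, and 42379, 42034 and 43833 in Control libraries. Every LPS+NaBu library was below every LPS library, and these were all below Control, so that Csf1r was the only member to fall in all 3 comparisons. It was 3.83-fold lower with LPS+NaBu than with LPS (log2 change -1.94 ± 0.06, adjusted p = 3.69e-12). It was 6.54-fold lower with LPS+NaBu than in Control (-2.71 ± 0.06, adjusted p = 2.14e-13) and 1.71-fold lower with LPS than in Control (-0.77 ± 0.06, adjusted p = 9.23e-08). In the same libraries 6 of 7 macrophage markers were also called lower with LPS+NaBu than with LPS (37.8% of all tested genes), while 4 of 7 were called higher with LPS than in Control (25.2% of all tested genes) and 0 lower. The gene Hmgxb3 overlaps Csf1r on the other strand and averaged 3276 with LPS+NaBu, 3660 with LPS and 2707 in Control. Whether reads were counted by strand is not given, so reads of the overlap cannot be assigned with certainty. The same limit holds for Csf1, Csf2, Csf3, Csf2ra, Csf2rb2 and Csf3r, each of which overlaps a predicted gene on the other strand in the annotation.

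Csf2ra, the alpha chain that gives GM-CSF its specific binding site, had 1131, 1079 and 976 normalised counts with LPS+NaBu, 3136, 3188 and 3035 with LPS, and 2183, 2092 and 2372 in Control. LPS libraries were thus the highest and LPS+NaBu libraries the lowest, without overlap. The gene was 2.94-fold lower with LPS+NaBu than with LPS (log2 change -1.56 ± 0.07, adjusted p = 1.14e-10) and 2.09-fold lower than in Control (-1.06 ± 0.07, adjusted p = 6.08e-09). With LPS alone it was 1.41-fold higher than in Control (0.50 ± 0.07, adjusted p = 2.57e-05).

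Csf2rb, the common beta chain, was the only member called higher with LPS+NaBu than with LPS. It had 16040, 15697 and 14961 normalised counts with LPS+NaBu, 13042, 12883 and 12455 with LPS, and 7016, 7304 and 7149 in Control, with no overlap between groups. LPS+NaBu was 1.22-fold above LPS (log2 change 0.28 ± 0.04, adjusted p = 3.34e-05) and 2.18-fold above Control (1.12 ± 0.04, adjusted p = 3.82e-11). LPS alone was 1.79-fold above Control (0.84 ± 0.04, adjusted p = 1.76e-09).

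Csf2rb2, the IL-3-specific copy, went the other way. It had 4406, 4528 and 4208 normalised counts with LPS+NaBu, 8158, 8180 and 7809 with LPS, and 4792, 5307 and 5229 in Control. It was 1.84-fold lower with LPS+NaBu than with LPS (log2 change -0.88 ± 0.05, adjusted p = 2.25e-09), and a little lower, by 1.17-fold, than in Control (-0.22 ± 0.05, adjusted p = 0.00123). LPS alone gave 1.58-fold more than Control (0.66 ± 0.05, adjusted p = 1.20e-07). Its level with LPS+NaBu was therefore close to, yet outside, the Control range.

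Because the beta chains lie side by side on chromosome 15 and share most of their sequence, they were also compared within each library. Their coding sequences, 2691 bases for Csf2rb and 2637 for Csf2rb2, were identical at 95.21% of 2631 aligned bases, with 126 differences. The first 120 coding bases show how reads of this length can tell them apart. Capitals mark the 4 bases that differ.
Csf2rb: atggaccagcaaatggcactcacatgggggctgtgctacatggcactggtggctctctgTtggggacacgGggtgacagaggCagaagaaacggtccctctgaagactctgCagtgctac
Csf2rb2: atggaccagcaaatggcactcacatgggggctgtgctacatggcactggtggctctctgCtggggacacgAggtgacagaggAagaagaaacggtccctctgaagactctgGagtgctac
Of all windows of 150 bases, the read length used, 3.58% in the Csf2rb transcript and 3.59% in the Csf2rb2 transcript occur unchanged in the other. Most reads could thus be placed, but some may have been left out or assigned to the wrong copy, and the levels of both are uncertain to that extent.

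The share of Csf2rb2 in the reads of the pair was 21.5%, 22.4% and 22.0% in LPS+NaBu libraries, 38.5%, 38.8% and 38.5% in LPS libraries, and 40.6%, 42.1% and 42.2% in Control libraries. Each share rests on at least 12306 reads, and the 95% Wilson intervals ran from 21.1% to 23.0% over LPS+NaBu libraries, 37.7% to 39.6% over LPS libraries and 39.8% to 43.1% over Control libraries. The share was 16.7 percentage points lower with LPS+NaBu than with LPS, on means of 22.0% and 38.6%. An exact two-sided permutation test gave p = 0.10, the smallest value 3 against 3 libraries allow, and the same p held for LPS+NaBu against Control and for LPS against Control. The sum of the pair was 19169 to 20446 with LPS+NaBu and 20264 to 21200 with LPS, ranges that overlap, against 11808 to 12610 in Control. The balance within the pair thus differed between LPS+NaBu and LPS libraries at overlapping sums. The shared sequence is the same in every group, and its part in the shares was not tested.

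**Figure D3:**
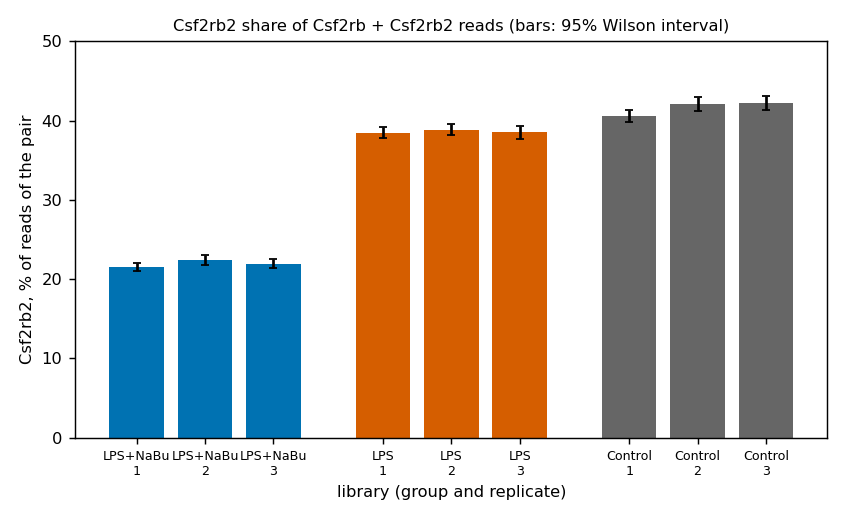
Csf2rb2 as a percentage of the reads of Csf2rb and Csf2rb2 in each library; whiskers are 95% Wilson intervals, which cover counting error only. The LPS+NaBu bars stand near 22.0%, the LPS bars near 38.6% and the Control bars between 40.6% and 42.2%.

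Csf3r, the G-CSF receptor of neutrophils, was near the floor. It had 26.1, 27.9 and 28.1 normalised counts with LPS+NaBu, 30.1, 42.3 and 28.2 with LPS, and 17.5, 40.0 and 16.1 in Control. Control replicate 2 stood apart from the other Control libraries and reached into the LPS range. None of the comparisons was called, with log2 changes of -0.26 ± 0.35 for LPS+NaBu against LPS (adjusted p = 0.501), 0.27 ± 0.35 for LPS+NaBu against Control (adjusted p = 0.488) and 0.53 ± 0.35 for LPS against Control (adjusted p = 0.211). Without Control replicate 2 the last of these became 0.94 and was called (adjusted p = 0.0224). Under quantile normalization of all 9 libraries the change for LPS+NaBu against LPS was -0.92 and was called (adjusted p = 0.0233). A change of Csf3r was thus not called in the fit used here, which does not show that it was absent. The sign for LPS+NaBu against LPS turned when libraries were brought to an equal sum (0.00607, adjusted p = 0.988), and that for LPS+NaBu against Control under quantile normalization (-0.48, adjusted p = 0.203).

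Per kb of exon the order of the members differed between groups. With LPS+NaBu the order was Csf2rb (2139 ± 75.8 normalised counts per kb, SD, n = 3), Csf3 (1012 ± 63.4), Csf2rb2 (924 ± 34.1), Csf1r (888 ± 77.1), Csf2ra (363 ± 27.0), Csf1 (62.6 ± 5.88), Csf2 (13.5 ± 6.06) and Csf3r (5.37 ± 0.213). Csf2rb2 and Csf1r overlapped over libraries, and the other neighbours did not. With LPS, Csf3 came first at 56394 ± 2445 per kb, above Csf1r at 3398 ± 74.7, and Csf2rb (1758 ± 41.7) and Csf2rb2 (1698 ± 43.9) overlapped. They were followed by Csf2ra (1067 ± 26.6), Csf1 (246 ± 13.5), Csf2 (38.4 ± 15.5) and Csf3r (6.57 ± 1.49) without overlap. In Control, Csf1r led at 5807 ± 130 per kb, followed by Csf2rb2 (1078 ± 58.6), Csf2rb (983 ± 19.8) and Csf2ra (758 ± 48.8). Csf3r (4.81 ± 2.63), Csf1 (3.60 ± 2.16), Csf3 (0.947 ± 1.64) and Csf2 (0.419 ± 0.726) came last, each overlapping its neighbour. Csf1r thus led the receptors in Control and LPS cells and was behind the common beta chain in LPS+NaBu cells. The lengths are those of all annotated exons, 7277 bases for Csf2rb and 4740 for Csf2rb2, whereas their canonical transcripts have 4764 and 4740 bases. The order of the beta chains depends on that choice, since Csf2rb had 1.37 to 3.64 times the reads of Csf2rb2 in every library.

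**Figure D4:**
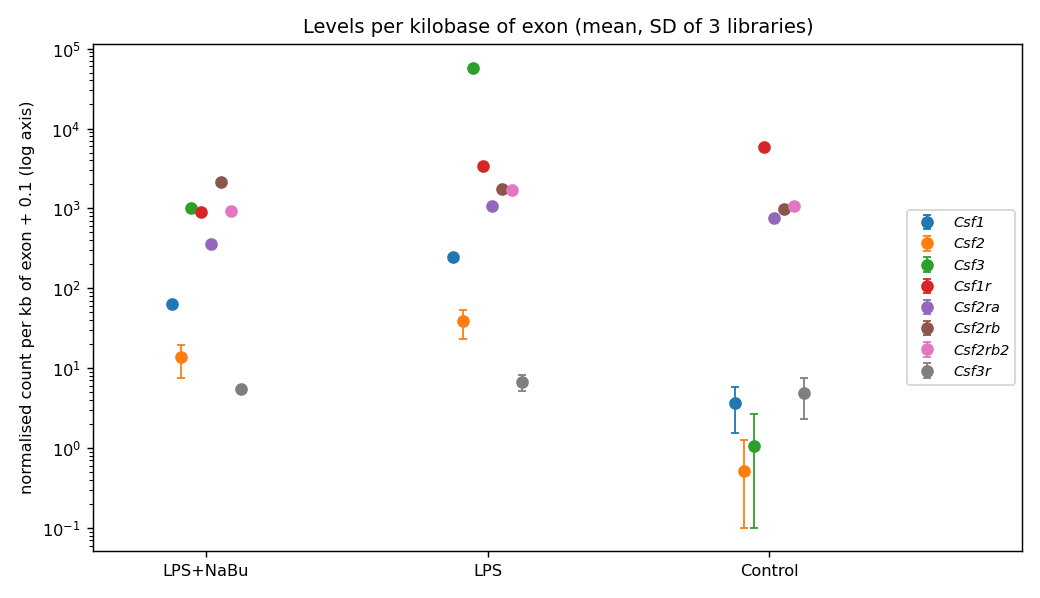
Normalised count per kb of exon + 0.1 of each gene in the 3 groups, on a log axis; points are means and bars the SD of 3 libraries. Csf3 stands highest with LPS (56394 per kb), Csf2rb with LPS+NaBu (2139 per kb) and Csf1r in Control (5807 per kb).

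For each member the 3 tested genes with the nearest profile over the 9 libraries were found, by Euclidean distance between centred log2 values. For Csf1r these were Cdca5 (distance 0.200), which acts in sister chromatid cohesion, Pianp and Clspn, a DNA replication checkpoint gene. For Csf2ra they were Dhx38, the integrin beta chain Itgb2 and Ppp1r18. Csf2rb was nearest to the early response gene Ier5 (0.118), the cell cycle inhibitor Cdkn1a and Serhl, and Csf2rb2 to the kinase Ptk2b (0.173), Foxred1 and Rnf135. The ligands had looser neighbours, with RP23-436K7.4 at 1.18 and Ccrl2 at 1.37 for Csf1, Batf2 at 1.42 for Csf2 and the interferon-induced gene Cmpk2 at 5.72 for Csf3. This distance grows with the size of a change, and over the 9 libraries, which fall into 3 treatments, the values of Cmpk2 and Csf3 had a Pearson r of 0.991. Csf3r, with its low counts, had a pseudogene, Tdpx-ps1 (0.614), as its nearest. A like profile over 3 treatments is a description only.

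Of the neighbouring ligands and receptors of the same families, 4 of 8 listed ligands and 4 of 11 listed receptors were tested. Among all genes 14808 of 43629 were tested, so these counts do not set the lists apart. Il3, its alpha chain Il3ra, the IL-5 alpha chain Il5ra and the stem cell factor receptor Kit, named after their values were seen, had 0 reads in all 9 libraries, which allows up to 3 reads in each. Of the alpha chains that pair with the beta chains, Csf2ra was thus the only one found. Il34, the second ligand of CSF1R, was called higher with LPS+NaBu (242 ± 14.4 normalised counts) than with LPS (39.0 ± 11.2), by 2.65 ± 0.22 on the log2 scale (adjusted p = 9.44e-08). Its Control level was 83.9 ± 7.66, above that with LPS (-1.12 ± 0.22 for LPS against Control, adjusted p = 0.000600). Its changes thus ran opposite to those of Csf1 in these comparisons, whereas with LPS+NaBu against Control both were higher (1.52 ± 0.22 for Il34, adjusted p = 2.49e-05). The cytokine Tslp (60.7 ± 15.7 with LPS+NaBu and 4.51 ± 2.17 with LPS) and the erythropoietin receptor Epor (444 ± 35.6 and 25.7 ± 9.55) were also higher with LPS+NaBu. Tslp passed the filter only through LPS+NaBu libraries, so its difference was built into the filter. The 4 tested fibroblast markers were higher in the same libraries, as given above, and their part in these values was not tested.

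Lists of genes that act downstream or upstream of the receptors were described by counts, to be read against the percentages called among all tested genes. With LPS+NaBu against LPS these were 40.2% higher and 37.8% lower. With LPS against Control they were 25.2% higher and 30.8% lower. Of 8 JAK-STAT carriers, 4 were higher and 4 lower with LPS+NaBu than with LPS, and 6 were higher and 2 lower with LPS than in Control. Jak2, the kinase that the beta chains use, averaged 2910 ± 174 with LPS+NaBu and 5492 ± 379 with LPS (log2 change -0.92 ± 0.07, adjusted p = 3.92e-08). Stat5b, which carries the GM-CSF signal, averaged 712 ± 12.7 and 1374 ± 44.4 in these groups (-0.95 ± 0.06, adjusted p = 3.35e-09). Its close relative Stat5a, named after its values were seen, was higher, at 1740 ± 77.4 with LPS+NaBu and 1149 ± 35.7 with LPS (0.60 ± 0.06, adjusted p = 3.51e-07). Of 24 genes of receptor-proximal signalling and clearance, 8 were higher and 13 lower with LPS+NaBu than with LPS. The adaptor Dok2 averaged 925 ± 103 with LPS+NaBu and 14379 ± 835 with LPS (-3.96 ± 0.07, adjusted p = 8.23e-14), and the kinase Src 4385 ± 207 and 27202 ± 1040. Gab3, an adaptor of the CSF-1 receptor, was higher, at 157 ± 22.7 against 20.8 ± 5.15 (2.87 ± 0.23, adjusted p = 8.20e-08).

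Of the 8 lists, feedback inhibitors and targets of STAT5 and STAT3 had the largest share of genes called higher with LPS than in Control. Of 15, 14 were higher and 0 lower with LPS than in Control (median log2 change 1.63), and 3 were higher and 10 lower with LPS+NaBu than with LPS (median -1.16). With LPS+NaBu against Control, 9 were higher and 6 lower (median 1.20). Cish, Socs1 and Socs2 passed the filter only through libraries that received LPS, so their calls against Control were partly built in. Among all tested genes 25.2% were higher and 30.8% lower with LPS than in Control. The shares were 40.2% and 37.8% with LPS+NaBu against LPS, and 40.9% and 35.1% with LPS+NaBu against Control. Ccnd1, a cyclin that drives entry into S phase, averaged 1347 ± 22.6 with LPS+NaBu and 50434 ± 881 with LPS (-5.23 ± 0.04, adjusted p = 4.60e-17). Myc averaged 402 ± 27.1 and 3904 ± 241 (-3.28 ± 0.09, adjusted p = 2.28e-12). Cish, an inhibitor induced by STAT5, averaged 143 ± 10.9 with LPS+NaBu and 144 ± 6.56 with LPS, a difference that was not called, and both groups were far above Control (0.333 ± 0.577). Socs2, another such inhibitor, was higher with LPS+NaBu (99.0 ± 14.9) than with LPS (12.6 ± 3.99; 2.91 ± 0.62, adjusted p = 0.000797). Socs2 needed LPS+NaBu libraries to pass the filter, so this call was also partly built in. The list therefore did not move as a block with NaBu. These genes also answer to other signals of LPS, and the part of the CSF receptors in their levels was not tested.

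Of 14 tested regulators of Csf1r transcription, 5 were higher and 8 lower with LPS+NaBu than with LPS, and 5 were higher and 5 lower than in Control. Among all tested genes 40.2% were higher and 37.8% lower than with LPS, and 40.9% and 35.1% than in Control. Ets1, called higher in both comparisons, passed the filter only through LPS+NaBu libraries, so its calls were partly built in. Tfec, a macrophage factor, averaged 52.1 ± 8.15 with LPS+NaBu and 684 ± 14.3 with LPS (-3.70 ± 0.12, adjusted p = 1.25e-11). The ETS factor Fli1 averaged 248 ± 61.4 with LPS+NaBu and 2536 ± 91.4 in Control (-3.38 ± 0.13, adjusted p = 6.54e-11). Cebpa, a myeloid factor, went in the other direction, with 392 ± 34.8 in LPS+NaBu and 34.7 ± 9.49 in LPS libraries (3.50 ± 0.20, adjusted p = 3.07e-09).

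Of 14 tested regulators of Csf2 and Csf3 transcription, 12 were higher and 2 lower with LPS than in Control, and 3 were higher and 6 lower with LPS+NaBu than with LPS. Among all tested genes these shares were 25.2% and 30.8% for LPS against Control, and 40.2% and 37.8% for LPS+NaBu against LPS. Cebpd averaged 124 ± 30.2 with LPS+NaBu, against 3389 ± 380 with LPS (-4.79 ± 0.15, adjusted p = 6.94e-12). Nfkb1, a subunit of NF-kB, averaged 4891 ± 85.8 with LPS+NaBu and 19220 ± 396 with LPS (-1.97 ± 0.04, adjusted p = 1.61e-13). Nfkbiz, an NF-kB cofactor, averaged 7774 ± 141 with LPS+NaBu, 7694 ± 539 with LPS and 307 ± 20.8 in Control, and its difference between LPS+NaBu and LPS was not called. Of 16 genes of AU-rich mRNA decay and stability, 3 were higher and 11 lower with LPS+NaBu than with LPS. Zfp36, which encodes tristetraprolin, averaged 15500 ± 379 with LPS+NaBu, 12978 ± 601 with LPS and 1062 ± 65.1 in Control (LPS+NaBu against Control 3.87 ± 0.05, adjusted p = 6.00e-15). Zc3h12a, which encodes the RNase regnase-1, averaged 2440 ± 133 with LPS+NaBu and 7078 ± 218 with LPS (-1.54 ± 0.07, adjusted p = 2.43e-10).

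**Figure D5:**
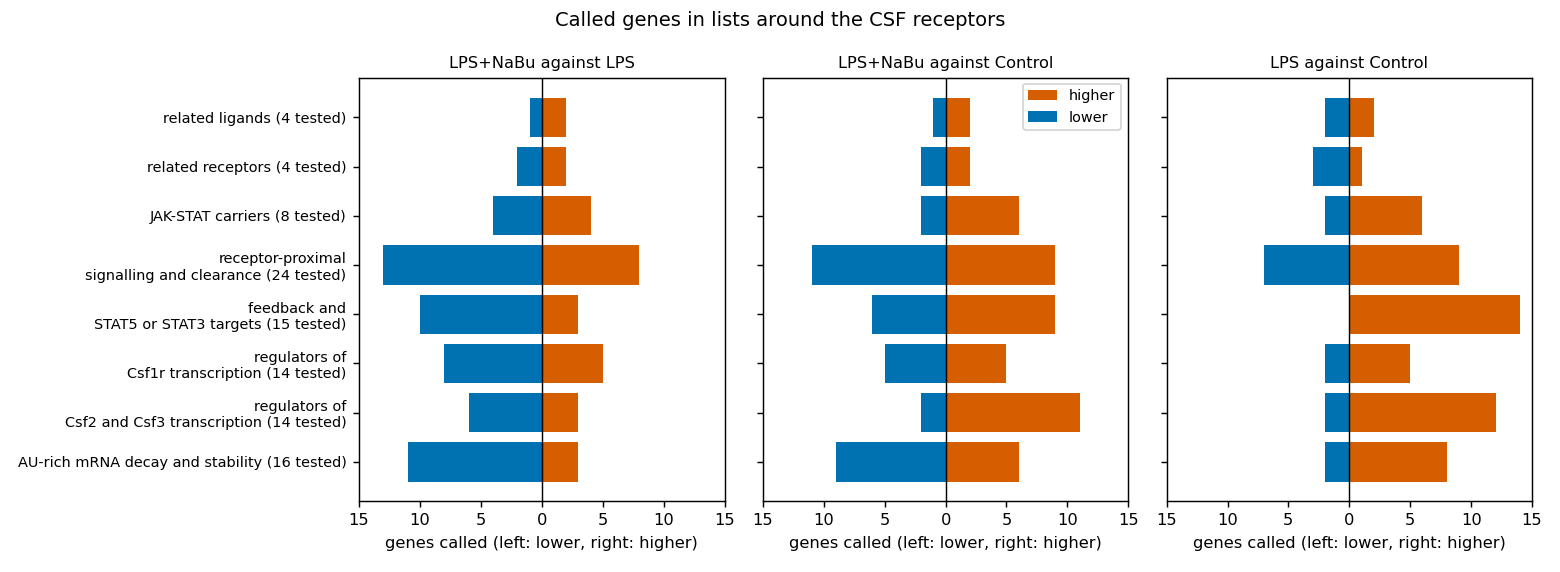
Number of genes called higher (right) and lower (left) in 8 lists around the CSF receptors, for LPS+NaBu against LPS, LPS+NaBu against Control and LPS against Control. In the list of feedback inhibitors and STAT targets, 14 of 15 genes were higher with LPS than in Control, and 10 of 15 lower with LPS+NaBu than with LPS. Among all tested genes these shares were 25.2% and 37.8%. In that list Cish, Socs1 and Socs2 passed the filter only through libraries that received LPS.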

How the data were processed

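RNA was sequenced from 9 libraries. The deposited values are used as a signal that the authors made by dividing the gene counts of each library by its size factor. They carry the name FPKM, but every value was a whole multiple (within 0.001) of a step of its library, equal to 1 over the DESeq2 size factor of the recovered reads. The study's methods name Trimmomatic, HISAT2 and featureCounts on uniquely mapped reads of a directional library, whereas STAR 2.7.7a, DESeq2 and mm39 are named in the submitters' processing notes. Which aligner and strand setting made the values is therefore unclear. Exon lengths, transcripts and windows came from GRCm39 with GENCODE annotation.

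Groups followed the labels. limma 3.58.1 (R 4.3.3) was fitted to log2(value + 1) of all 9 libraries with a trend, two-sided, for genes at 10 or more in at least 3 libraries, and was tested on simulated data. The text names the members, up to 3 called genes with the largest change per list and comparison, and the 3 nearest profiles. Members and lists were chosen with earlier results of these data known. Alternatives were other pseudocounts, filters and scalings, 2 groups only, a replicate block, leaving out each library, limma on variance-stabilised values, edgeR 4.0.16 and DESeq2 1.42.0.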

Additional observations from a re-analysis of the deposited data

How the results depend on the processing

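With all members, 7 were called in each comparison, and 6 to 8 over the alternatives. The 18 calls of Csf1, Csf3, Csf1r, Csf2ra, Csf2rb and Csf2rb2 kept direction and side of the threshold under all 20 alternatives. Csf2 for LPS+NaBu against LPS lost its call with libraries brought to an equal sum (-1.18, adjusted p = 0.0565). Csf3r for LPS+NaBu against LPS was 0.00607 under that scaling (adjusted p = 0.988) and -0.92 under quantile normalization, where it was called (adjusted p = 0.0233). For LPS+NaBu against Control, Csf3r was -0.48 under quantile normalization (adjusted p = 0.203). Equal sums moved the median change of all genes by -0.22 for LPS against Control and 0.27 for LPS+NaBu against LPS, and the share of calls that were higher to 24.3% from 45.0% and to 64.2% from 51.5%. edgeR moved it by -0.11 for LPS+NaBu against LPS. Same-numbered replicates showed no shared deviation (correlations of -0.0444 to 0.0202, against -0.0686 to 0.0761 for differently numbered ones). No pairing by number was thus seen, although the labels do not say whether libraries were paired. The replicate block left 7 calls in each comparison. Csf2, with 1 Control read, and Csf3r are limited by depth, and Csf3 in Control by its 4 reads.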
